A study of Mus musculus with 6 samples.

Results

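The Cyp4 fatty acid omega-hydroxylases described here are 7 mouse genes, Cyp4a10, Cyp4a12a, Cyp4a12b, Cyp4a14, Cyp4a31, Cyp4a32 and Cyp4b1, found by symbol among the 19166 symbols of the expression table. All 7 were in the table. They were chosen because their levels differed between the groups compared below, so their own differences are given as a description, without a test. RNA sequencing had been done on renal cortex of male wild-type C57BL/6J mice aged 8 weeks, 3 mice per group and 1 library per mouse. In both groups the left renal pedicle had been clamped for 35 min (unilateral ischemia-reperfusion injury, UIRI), the right kidney had been removed on day 13, and tissue had been taken on day 14. The UIRI group received vehicle by daily intraperitoneal injection, and the UIRI + BA group received Bruceine A (BA, which the library labels call brucine A) at 1 mg/kg per day. Sham kidneys were not analysed here, so no level is set against uninjured tissue.

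Cyp4 enzymes are cytochrome P450 monooxygenases of the endoplasmic reticulum. The Cyp4a enzymes add a hydroxyl group to the last carbon of a fatty acid, the first step of omega-oxidation, which ends in dicarboxylic acids that peroxisomes shorten. They also convert arachidonic acid into a hydroxylated eicosanoid that acts on renal vessels and on salt transport in the tubule. In the kidney they are known from the proximal tubule, where the fatty acid receptor PPARα induces several of them and androgen maintains Cyp4a12a. Cyp4b1 hydroxylates shorter fatty acids and activates some foreign compounds.

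The 7 genes lie side by side on chromosome 4 within 348.7 kb (GENCODE M21 on build GRCm38, matched by symbol; the build used for the deposited values is not named). In map order they are Cyp4a12a (chr4:115299046-115332815, plus strand), Cyp4a12b (chr4:115411624-115439034, plus), Cyp4a14 (chr4:115486200-115496142, minus), Cyp4a10 (chr4:115518264-115533649, plus), Cyp4a31 (chr4:115563649-115579015, plus), Cyp4a32 (chr4:115600969-115621602, plus) and Cyp4b1 (chr4:115624725-115647723, minus). Each has 12 annotated exons, except Cyp4a10 with 13. How alike they are bears on the counts, because a read that matches more than 1 gene cannot be placed by its own sequence. The first 60 bases of each coding sequence are shown for that reason, with capitals where a base differs from Cyp4a10.
Cyp4a10: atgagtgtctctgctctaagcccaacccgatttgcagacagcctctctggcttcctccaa
Cyp4a32: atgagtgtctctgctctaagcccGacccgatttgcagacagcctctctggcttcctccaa
Cyp4a31: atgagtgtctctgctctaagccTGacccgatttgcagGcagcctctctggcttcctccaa
Cyp4a12a: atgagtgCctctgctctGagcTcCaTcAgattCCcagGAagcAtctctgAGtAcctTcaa
Cyp4a12b: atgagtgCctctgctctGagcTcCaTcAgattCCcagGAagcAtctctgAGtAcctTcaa
Cyp4a14: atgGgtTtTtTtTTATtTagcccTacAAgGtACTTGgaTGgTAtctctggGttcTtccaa
Cyp4b1: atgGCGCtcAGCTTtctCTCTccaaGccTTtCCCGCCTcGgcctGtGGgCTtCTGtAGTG

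Over this stretch Cyp4a32 differed from Cyp4a10 at 1 base, Cyp4a31 at 3, Cyp4a12a and Cyp4a12b at the same 15, Cyp4a14 at 24 and Cyp4b1 at 36. Over the whole coding sequence, Cyp4a12a and Cyp4a12b were 98.5% identical and differed at 23 of 1524 positions. Cyp4a10 was 97.2% identical to Cyp4a32 and 96.6% to Cyp4a31, and Cyp4a31 was 96.0% identical to Cyp4a32. Cyp4a14 was 75.2% to 76.1% identical to the other Cyp4a genes, and Cyp4b1 was 60.1% to 61.6% identical to all of them. The stretches below hold the bases that tell the closest relatives apart. Capitals mark the 4 positions that differ between Cyp4a12a and Cyp4a12b at coding bases 624 to 683, and the 9 that vary among Cyp4a10, Cyp4a31 and Cyp4a32 at coding bases 200 to 259.
Cyp4a12a: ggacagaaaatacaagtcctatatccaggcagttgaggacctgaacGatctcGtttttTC
Cyp4a12b: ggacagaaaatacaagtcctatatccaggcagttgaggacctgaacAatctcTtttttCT
Cyp4a10: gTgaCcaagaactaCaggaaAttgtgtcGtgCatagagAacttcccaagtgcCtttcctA
Cyp4a31: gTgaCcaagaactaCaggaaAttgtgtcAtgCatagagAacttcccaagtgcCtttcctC
Cyp4a32: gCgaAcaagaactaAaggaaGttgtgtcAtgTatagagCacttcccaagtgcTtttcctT

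Reads were 150 bases long and sequenced in pairs, and uniqueness was judged for a single read without its mate. Such a read was unique to its gene at 100% of positions in the transcripts of Cyp4a14 and Cyp4b1. The share was 96.5% in Cyp4a31, 96.0% in Cyp4a10 and 93.0% in Cyp4a32, but 74.4% in Cyp4a12a and 74.1% in Cyp4a12b, which shared the remainder with each other. The split of reads between Cyp4a12a and Cyp4a12b is therefore less certain than their sum, and sums are given beside the single genes.

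The deposited values were counts divided by a size factor, called normalized counts here, and dividing by the value of 1 read gave whole numbers for 100% of them. The libraries held 16510720 to 38124164 reads on genes. UIRI replicate 3, with 2.04 times the median depth of the rest, stood nearer to UIRI + BA replicate 3 than to its own group on the first principal component, at 11.1 against 13.4, with the other UIRI libraries at -32.5 and -25.5. Across all 19176 rows, limma (log2 of the normalized count plus 1, moderated variance, Benjamini-Hochberg adjustment) gave 0 genes, 0% of those tested, at an adjusted p below 0.05. At an unadjusted p below 0.05 it gave 1087 higher with BA (5.67%) and 884 lower (4.61%), 1971 in all (10.3%). DESeq2 gave 163 of 14340 higher at an adjusted p below 0.05 (1.14%), and edgeR gave 0 in either direction. Without UIRI replicate 3, limma gave 962 genes at an adjusted p below 0.05. Every p below therefore stands as unadjusted unless it is named otherwise, and it measures the spread among 3 mice per group.

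In 6 of the 7 genes the mean normalized count was 1.49 to 2.83-fold higher with BA, and in Cyp4a14 the fold was 1.04. In 5 genes, Cyp4a10, Cyp4a12a, Cyp4a12b, Cyp4a31 and Cyp4b1, the lowest UIRI + BA library lay above the highest UIRI library. Among all genes, 7.45% were separated in that way and direction, and since the members were picked from this contrast nothing is read from the comparison. The median log2 difference (UIRI + BA minus UIRI) was 0.90 over the 7 genes and -0.01 over all genes.

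Cyp4a31, a member with high identity to the PPARα-inducible Cyp4a10, was the most abundant Cyp4a gene. Its normalized count was 293, 420 and 464 in the UIRI libraries (here and below in the order of replicates 1, 2 and 3), against 800, 748 and 1027 in those with BA. All UIRI + BA libraries lay above all UIRI libraries, by at least 1.61-fold. The means were 392.3 ± 88.4 and 859 ± 148 (SD, n = 3 each), a fold of 2.19 and a log2 difference of 1.14 (SE 0.24).

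Cyp4a10, known as a strongly PPARα-inducible omega-hydroxylase, had the largest difference of the 7 genes. The normalized counts were 78.2, 47.2 and 98.0 in UIRI libraries against 174, 157 and 301 with BA. The groups did not overlap, but libraries within each group spread widely, with UIRI replicate 2 and UIRI + BA replicate 3 at the ends. The mean went from 74.5 ± 25.6 to 211 ± 78.3 (SD, n = 3 each), 2.83-fold higher, with a log2 difference of 1.49 (SE 0.42). Cyp4a32, the third of this close group, rested on 4 to 20 reads per library. It read 4.53, 13.5 and 7.12 in UIRI libraries against 10.02, 10.8 and 20.9 with BA, and the groups overlapped. The log2 difference was 0.71 with an SE of 0.51, so its size is not determined at this depth, and it was 0.38 with UIRI replicate 1 left out, 1.08 with UIRI replicate 2 left out and 0.39 with UIRI + BA replicate 3 left out. Summed, Cyp4a10, Cyp4a31 and Cyp4a32 had a normalized count of 475 ± 96.5 in UIRI and 1083 ± 232 in UIRI + BA, a fold of 2.28 (log2 difference 1.19, SE 0.24).

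Cyp4a12a is known as the main arachidonic acid omega-hydroxylase of the male mouse kidney, and Cyp4a12b is its near-identical neighbour. Cyp4a12b had normalized counts of 61.2, 51.7 and 88.2 in UIRI libraries against 180, 120 and 158 with BA. Cyp4a12a had 35.1, 25.9 and 45.5 in UIRI libraries against 57.6, 56.0 and 86.6 with BA, on 23 to 83 reads per library. In both genes the groups were separate, and UIRI replicate 3 was the highest UIRI library. The log2 difference was 1.19 (SE 0.28) for Cyp4a12b and 0.90 (SE 0.30) for Cyp4a12a, with folds of 2.28 and 1.88. Their sum was 96.3, 77.6 and 134 in UIRI libraries against 238, 176 and 244 with BA, a log2 difference of 1.11 (SE 0.27). The ratio of Cyp4a12b to Cyp4a12a was 1.89 ± 0.14 in UIRI and 2.36 ± 0.68 in UIRI + BA (SD, n = 3 each), with overlapping groups.

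Cyp4a14, the member most distant from the other Cyp4a genes in sequence and likewise a known PPARα target, stood apart from them. Its normalized count was 23.8, 25.9 and 16.4 in UIRI libraries against 20.04, 20.5 and 28.2 with BA, on 16 to 30 reads per library. The groups overlapped, with means of 22.03 ± 4.96 and 22.9 ± 4.58 (SD, n = 3 each). The log2 difference was 0.06 (SE 0.25), and it turned to -0.13 without UIRI replicate 3 and to -0.09 without UIRI + BA replicate 3. Its ratio to Cyp4a10 in reads was 0.304, 0.548 and 0.168 in UIRI libraries against 0.115, 0.130 and 0.094 with BA, lower in every UIRI + BA library than in any UIRI library. Because Cyp4a10 had the largest difference of the members, the lower ratio follows from it and is not a separate result.

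Cyp4b1 was the most abundant member. Its normalized counts were 2326, 2327 and 2512 in UIRI libraries, a tight group, against 2852, 3230 and 4561 with BA, which spread 1.60-fold from lowest to highest. The groups did not overlap, although the lowest UIRI + BA library was 1.14 times the highest UIRI library. The means were 2388 ± 107 and 3548 ± 898 (SD, n = 3 each), a fold of 1.49 and a log2 difference of 0.54 (SE 0.21), which was 0.35 without UIRI + BA replicate 3.

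**Figure D1:**
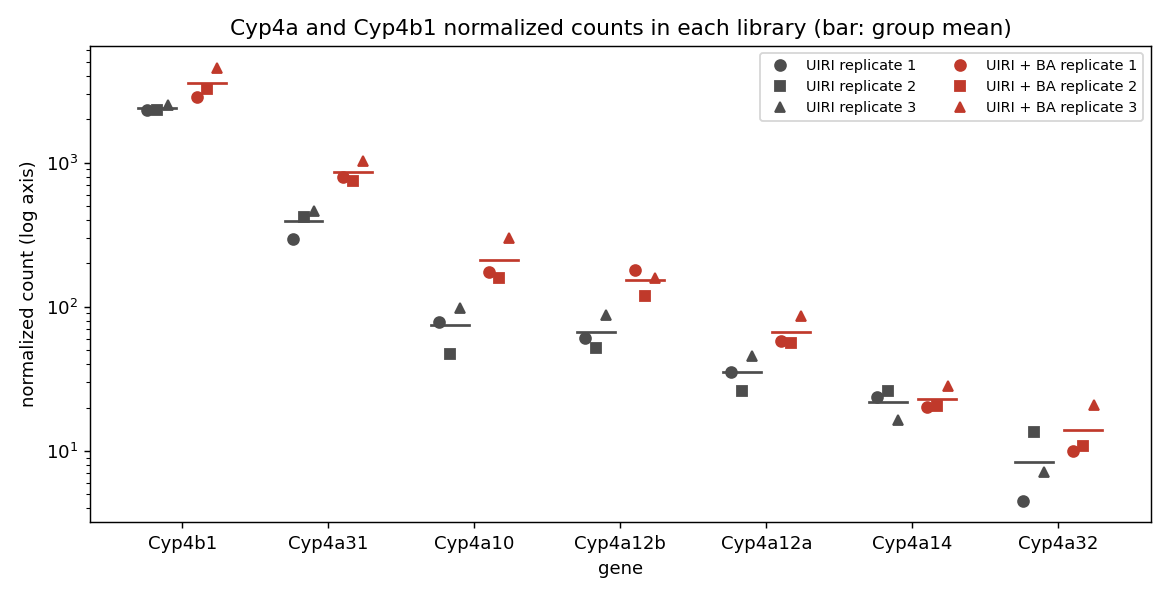
Normalized count (log axis) of each of the 7 genes in each of the 6 libraries, UIRI in grey and UIRI + BA in red, with bars at the group means (n = 3). The red points lie above the grey ones in Cyp4b1, Cyp4a31, Cyp4a10, Cyp4a12b and Cyp4a12a and mix with them in Cyp4a14 and Cyp4a32.

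The 6 Cyp4a genes together had a normalized count of 496, 584 and 719 in UIRI libraries against 1243, 1112 and 1621 with BA. No UIRI + BA library fell below 1.55 times the highest UIRI library. The sum was 599.7 ± 112 in UIRI and 1325 ± 264 in UIRI + BA (SD, n = 3 each), 2.21-fold higher, with a log2 difference of 1.14 (SE 0.22) that ran from 0.99 to 1.28 as each library was left out. With Cyp4b1 included, the sum went from 2988 ± 215 to 4873 ± 1140, 1.63-fold, since Cyp4b1 supplied most of the counts. UIRI + BA replicate 3 was the highest of the 6 libraries in every member except Cyp4a12b, where UIRI + BA replicate 1 was.

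Levels of different genes can be set side by side only per length, as reads per kilobase of exon scaled to library depth (RPKM, computed from the recovered reads). In the UIRI group the mean level per length was 50.4 for Cyp4b1, 7.45 for Cyp4a31, 1.68 for Cyp4a10, 1.33 for Cyp4a12b, 0.697 for Cyp4a12a, 0.403 for Cyp4a14 and 0.260 for Cyp4a32. In that order, Cyp4a10 and Cyp4a12b overlapped over the UIRI libraries, as did Cyp4a14 and Cyp4a32, and the other neighbours did not. In the UIRI + BA group the same levels were 74.6, 16.3, 4.74, 3.03, 1.31, 0.418 and 0.429, so the last pair changed places while still overlapping. The annotated Cyp4a32 model is 1536 bases long and almost wholly coding, against 2109 to 2601 bases for the other Cyp4a genes, so its level per length rests on a shorter model. Lengths were not corrected for shared positions, and the methods do not state how shared reads were counted. If these were left out, the levels and shares of Cyp4a12a and Cyp4a12b, unique at 74.4% and 74.1% of positions, are too low beside the others.

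Summed per length, the Cyp4a genes stood at 11.8 ± 2.29 in UIRI and 26.2 ± 5.26 in UIRI + BA (SD, n = 3 each). Cyp4a31 made up 62.8% ± 6.41 of that sum in UIRI and 62.4% ± 2.21 in UIRI + BA. Cyp4a10 made up 14.3% ± 4.48 and 17.7% ± 2.84, Cyp4a12b 11.2% ± 1.96 and 11.7% ± 2.58, and Cyp4a12a 5.92% ± 1.34 and 4.97% ± 0.331, all overlapping between the groups. The share of Cyp4a14 was 3.56% ± 1.26 in UIRI and 1.60% ± 0.105 in UIRI + BA, and those groups did not overlap. Among all 7 genes, the share of Cyp4b1 was 83.3%, 81.1% and 78.9% in UIRI libraries against 71.1%, 75.7% and 74.9% with BA, lower in each UIRI + BA library. The lower shares of Cyp4a14 and Cyp4b1 follow from the larger differences of other members and are not separate results.

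**Figure D2:**
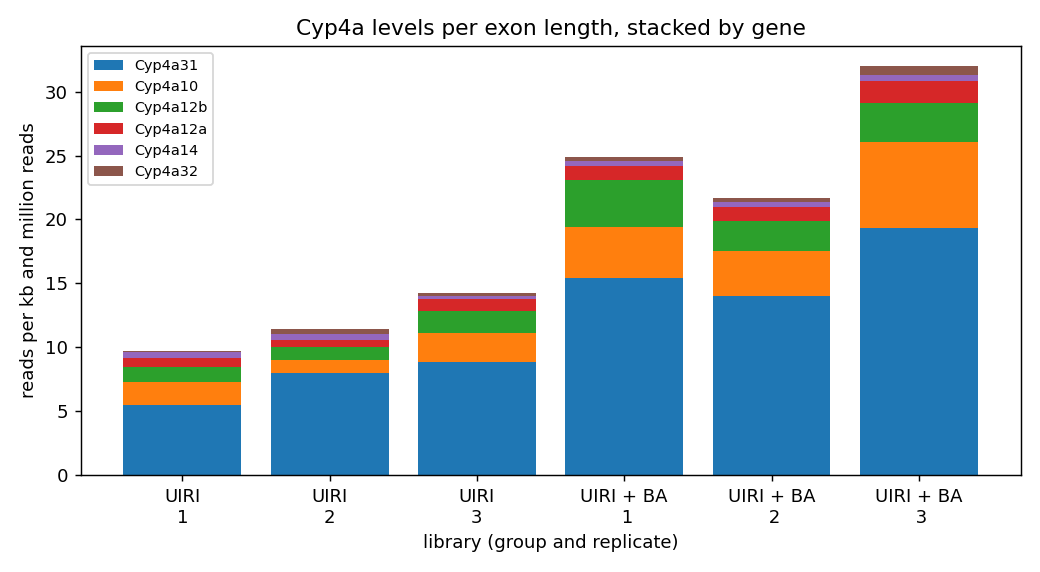
Reads per kilobase of exon scaled to library depth (RPKM) of the 6 Cyp4a genes, stacked, in each library. The stacks reach 9.74 to 14.3 in UIRI and 21.7 to 32.0 in UIRI + BA, and Cyp4a31 forms the largest part of each.

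Cyp4a genes are known from the proximal tubule, so their levels were set beside 29 markers of that segment, all in the table. Of these, 25 were higher with BA at an unadjusted p below 0.05 and 0 were lower, against 5.67% higher among all genes, and the median log2 difference was 0.62. limma and edgeR passed 0 of them after adjustment and DESeq2 passed 13. Among those with the largest differences were Slc34a3, a phosphate transporter (log2 difference 1.39), Pck1, the rate-setting enzyme of gluconeogenesis (1.04), the organic anion transporters Slc22a6 (0.98) and Slc22a8 (0.97), and Miox, which degrades inositol (0.91). The mean log2 level of the 29 markers was 9.96, 10.02 and 10.58 in UIRI libraries against 10.89, 10.68 and 10.93 with BA, and their summed normalized count ran from 60264 to 88298 and from 96744 to 113650. In bulk tissue, fewer cells of a type and less RNA per cell cannot be told apart.

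The difference of the Cyp4a sum, 1.14, was larger than that of the marker mean, 0.65, on the same log2 scale. The Cyp4a sum minus the marker mean was -0.999, -0.83 and -1.08 in UIRI libraries against -0.61, -0.56 and -0.26 with BA, higher in each UIRI + BA library. Taken singly, the log2 difference exceeded that of the marker mean by 0.84 for Cyp4a10, 0.54 for Cyp4a12b and 0.49 for Cyp4a31, with no overlap between the groups. For Cyp4a12a and Cyp4a32 it exceeded the marker mean by 0.25 and 0.06, and for Cyp4b1 and Cyp4a14 it fell short, at -0.11 and -0.59, all with overlap. The part of the proximal tubule markers in the Cyp4a result was not tested.

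**Figure D3:**
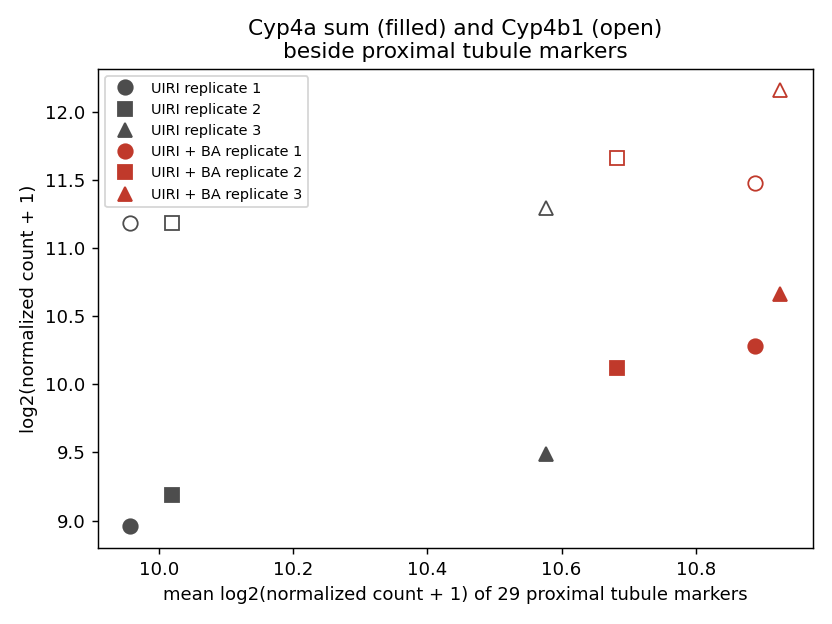
Log2 of the summed Cyp4a normalized count (filled) and of Cyp4b1 (open) against the mean log2 normalized count of 29 proximal tubule markers, 1 pair of symbols per library. UIRI replicate 3 lies at 10.58 on the marker axis, close to UIRI + BA replicate 2 at 10.68, while its Cyp4a value of 9.49 lies below the 10.12 of that library.

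Markers of segments of the proximal tubule and of other cells were counted in the same way. Of 5 early (S1) tubule markers 4 were higher, but all 5 belong to the proximal tubule markers above and are not a separate result. Of 4 late (S3) markers 1 was higher, Slc7a13 (log2 difference 1.06), a transporter of the last segment. The S3 markers averaged 7.37 to 7.77 on the log2 scale in 5 libraries and 8.85 in UIRI + BA replicate 3, the library in which 6 of the 7 members were highest. Of 6 injured tubule markers, Havcr1 (0.42), Krt20 (0.41) and Vcam1 (0.35) were higher and Lcn2 was lower (-0.51). Havcr1, which encodes KIM-1, read 14125, 16614 and 16012 in UIRI libraries against 18944, 22559 and 21074 with BA. By RT-qPCR the paper reports lower mRNA of KIM-1 and of NGAL (Lcn2) with BA in this model. The direction here was the opposite for Havcr1 and the same for Lcn2. Of 5 fibroblast genes 4 were lower, Col3a1 (-0.56), Col1a1 (-0.32), Pdgfra (-0.23) and Pdgfrb (-0.20), with a summed normalized count of 67155 to 82035 in UIRI and 48219 to 64597 in UIRI + BA. Markers of endothelium, macrophages, collecting duct and red blood cells (5 each) and of the distal convoluted tubule (2 of 3 in the table) had 0 genes at an unadjusted p below 0.05. The macrophage genes Cd68, Adgre1 and C1qa had log2 differences of -0.28, -0.16 and -0.35. Of adipocyte and adrenal cortex markers, 1 of 5 each was in the table and did not pass, and 1 of 4 thick limb markers was higher, Egf (0.53). The summed level of 5 urothelial markers ranged from 99.7 to 482 in UIRI and from 10.02 to 286 in UIRI + BA. Of 10 hepatocyte markers, which matter because liver also expresses Cyp4a genes, 9 were in the table with 0 passing, among them Alb (-0.07), Apob (0.08) and Ttr (0.10), and they summed to 1769 to 2011 in UIRI and 1865 to 2153 in UIRI + BA. Their part in the Cyp4a levels was not tested.

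The enzymes that act with or after the omega-hydroxylases were next examined, as a list of 28 genes all present in the table. Of these, 11 were higher with BA at an unadjusted p below 0.05 and 0 were lower, against 5.67% and 4.61% among all genes. The median log2 difference was 0.14. limma and edgeR passed 0 after adjustment and DESeq2 passed 3, all higher. Leaving out UIRI + BA replicate 3 gave 7, and leaving out UIRI replicate 3 gave 17. Ehhadh, the peroxisomal bifunctional enzyme that shortens dicarboxylic acids, read 785, 804 and 757 in UIRI libraries against 1089.9, 1070.5 and 1264 with BA. All 3 UIRI + BA libraries were above all UIRI libraries (log2 difference 0.54, SE 0.09, limma adjusted p = 0.225). Slc27a2, a very long chain acyl-CoA synthetase and fatty acid transporter, differed by 0.66 (SE 0.15), the thiolase Acaa1b by 0.53 (SE 0.12), and the acyl-CoA thioesterases Acot3, Acot4 and Acot12 by 0.67, 0.61 and 0.59. Por, the reductase that passes electrons to every microsomal P450, was named for that role after its values were seen and differed by 0.30 (SE 0.10, limma adjusted p = 0.418). The enzymes that oxidize the hydroxylated fatty acid further were likewise named for their role. Of these, the aldehyde dehydrogenases Aldh3a2 (0.21, SE 0.09) and Aldh9a1 (0.18, SE 0.07) were among the 11, and the alcohol dehydrogenases Adh1, Adh4, Adh5 and Adh7 were not, with log2 differences from -0.71 to 0.53.

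PPARα and its textbook targets outside the Cyp4 family numbered 29, of which 27 were in the table. Of these, 14 were higher with BA at an unadjusted p below 0.05 and 0 were lower, against 5.67% and 4.61% among all genes. The median was 0.22. limma and edgeR passed 0 after adjustment, DESeq2 passed 4, and limma's unadjusted count was 9 without UIRI replicate 1. Ppara itself, the receptor, read 46.4, 51.7 and 95.8 in UIRI libraries against 144, 89.4 and 99.1 with BA. UIRI replicate 3 lay within the UIRI + BA group, and the log2 difference was 0.81 (SE 0.29, limma adjusted p = 0.425). Pdk4, which restrains glucose oxidation, differed by 0.69 (SE 0.17), and Vnn1, a pantetheinase, by 0.68 (SE 0.16). Acot3, Acot4 and Ehhadh, the other targets with the largest differences, belong also to the list of partners above. Cyp4a14, counted among the members and not in this list, had a smaller log2 difference than these 6.

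Arachidonic acid, a Cyp4a substrate, is also the source of other eicosanoids, and 26 of 28 genes for their synthesis, removal and reception were in the table. At an unadjusted p below 0.05, 4 were higher and 3 lower, against 5.67% and 4.61% among all genes, with a median of -0.03. Those higher were Cyp2j11 (log2 difference 0.70, SE 0.19), Cyp2j5 (0.57, SE 0.13) and Cyp2j13 (0.43, SE 0.12), of the Cyp2j family of epoxygenases, and Ephx2, the soluble epoxide hydrolase (0.32, SE 0.13). Cyp2j6 (0.08) and Cyp2j9 (0.25), of the same family, did not pass. Cyp2j5 read 5739, 6546 and 7898 in UIRI libraries against 9575, 9000.0 and 11266.5 with BA. Ptgs1, a cyclooxygenase, and Pla2g4a, the phospholipase that frees arachidonic acid, were among those lower, at -0.36 (SE 0.08) and -0.31 (SE 0.08). limma and edgeR passed 0 of these after adjustment, and DESeq2 passed 2 of those higher and 1 of those lower.

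Because androgen maintains Cyp4a12a in the male mouse kidney, 7 male-biased kidney genes were counted. At an unadjusted p below 0.05, 2 were higher and 0 lower, against 5.67% and 4.61% among all genes. Cyp2e1, a P450 of ethanol and fatty acids, was among those higher (log2 difference 0.74, SE 0.21). With UIRI replicate 3 left out, or UIRI + BA replicate 1, the count was 4. Kap, the classical androgen-induced gene of the proximal tubule, named for that role, read 29077, 32021 and 30671 in UIRI libraries against 27223, 41925 and 76195 with BA, with overlap. Of 3 female-biased genes, Abcc3 was lower at that threshold (-0.30) and 0 were higher. Slc7a12 (0.81, SE 0.54) and Prlr (0.54, SE 0.34) went the other way without passing. The list medians were both 0.54, so the 2 lists did not move in opposite directions.

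**Figure D4:**
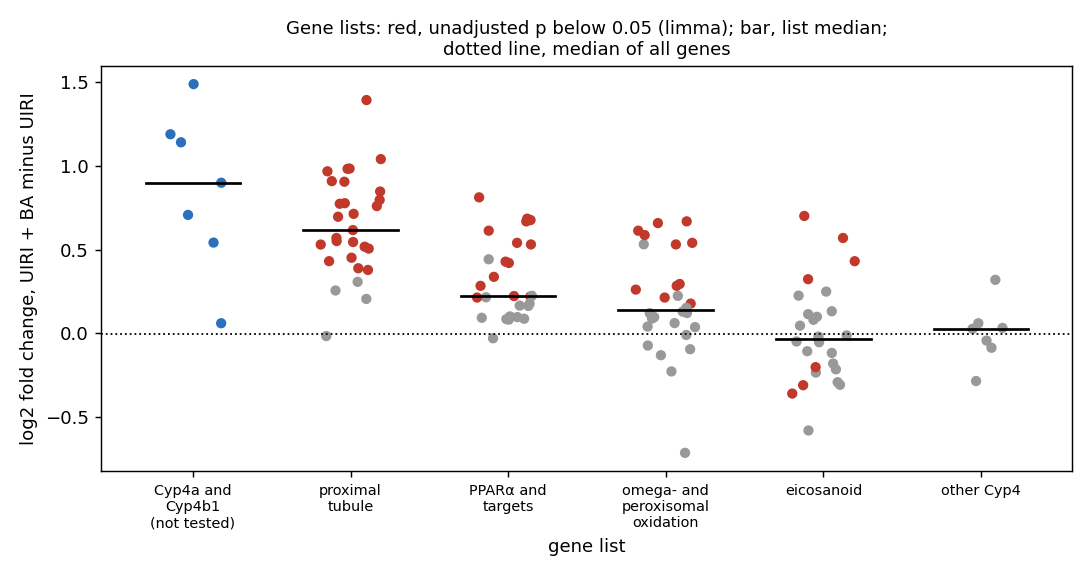
Log2 difference (UIRI + BA minus UIRI) of each gene in 6 lists. Red points have an unadjusted p below 0.05 in limma, grey points do not, blue points are the 7 members, which were not tested, black bars are list medians, and the dotted line is the median of all genes. The bars stand at 0.90 for the members, 0.62 for proximal tubule markers, 0.22 for PPARα and targets, 0.14 for the oxidation partners, -0.03 for eicosanoid genes and 0.03 for other Cyp4 genes.

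The remaining Cyp4 genes of the table were Cyp4v3, Cyp4f13, Cyp4f16, Cyp4f17, Cyp4f18, Cyp4x1 and the pseudogene Cyp4f41-ps. Cyp4f enzymes hydroxylate leukotrienes and long fatty acids, and Cyp4v3 hydroxylates fatty acids in several tissues. All 7 overlapped between the groups, 0 passed an unadjusted p below 0.05 in limma, and their log2 differences ran from -0.28 to 0.32. Cyp4v3 had a normalized count of 1012 ± 28.5 in UIRI and 982 ± 38.4 in UIRI + BA, and Cyp4f16 759 ± 44.9 and 776 ± 47.7 (SD, n = 3 each). Cyp4f13 stood at 710 ± 73.5 and 738 ± 41.7, and Cyp4f17 at 499.8 ± 43.3 and 471 ± 44.5. Cyp4f18, a leukotriene hydroxylase of white blood cells, stood at 457 ± 88.1 and 371 ± 35.5 (log2 difference -0.28, SE 0.15, limma adjusted p = 0.545), and without UIRI replicate 3 its difference was -0.46 (limma adjusted p = 0.045). Cyp4x1, which lies next to the members on chromosome 4, rested on 3 to 22 reads.

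Of 26 other genes annotated within 250 kb of the Cyp4 cluster, 8 were in the table. Of these, 1 was higher with BA at an unadjusted p below 0.05, against 5.67% among all genes. This was Pdzk1ip1, which encodes a small membrane protein of the proximal tubule. It read 3856, 4173 and 4133 in UIRI libraries against 4605, 4847 and 4847 with BA (log2 difference 0.23, SE 0.07, limma adjusted p = 0.357). Tal1, Cyp4x1, Efcab14, Tex38, Atpaf1, Mob3c and Mknk1 did not pass, with differences from -0.45 to 0.32.

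**Figure D5:**
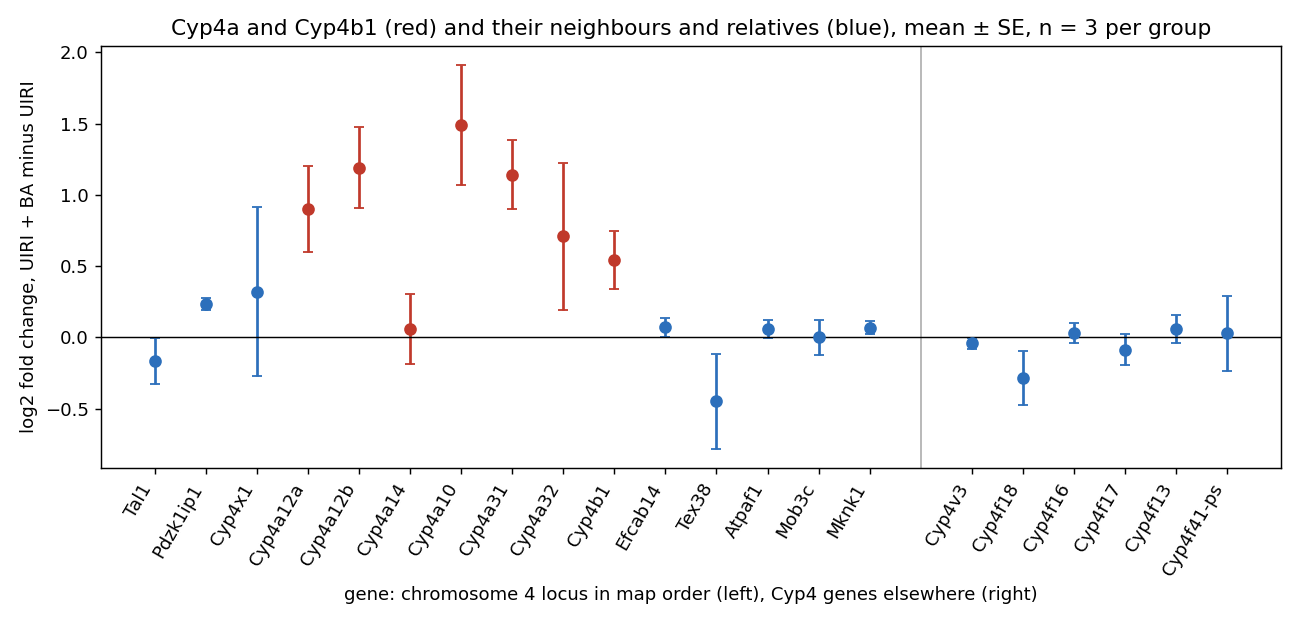
Log2 difference (UIRI + BA minus UIRI) with its SE, taken from the spread of the 3 libraries per group without moderation, for genes of the chromosome 4 locus in map order (left) and Cyp4 genes elsewhere (right). Members are in red and others in blue. The members lie between 0.06 and 1.49 and the flanking genes between -0.45 and 0.32.

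Promoter sequences (250 bases before to 50 after the start, RefSeq, GRCm38) were at hand for Cyp4a32 and Cyp4b1. The direct-repeat PPAR response element, sought on both strands, was in neither, and it was in 0.0396% of 32851 promoters. Its repeat unit AGGTCA was also in neither, and it was in 16.3% of all. The search says only that these letters are not in those windows.

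Finally, the genes whose profile over the 6 libraries was most like the Cyp4a sum were found among the 12644 genes whose normalized count averaged 100 or more, by the root mean square difference of centred log2 values. They were Slc10a2 (0.11), Gm45792 (0.13), Slc17a1 (0.15), Acnat2 (0.16), Slc6a20b (0.17), Ak4 (0.17), Adtrp (0.17), Slc22a12 (0.18), Aldh8a1 (0.18) and Gm49542 (0.18). Slc10a2, which takes up bile acids, read 603, 704 and 924 in UIRI libraries against 1730, 1220 and 1827 with BA. Slc17a1 and Slc22a12 encode transporters of phosphate and urate, Slc6a20b one of imino acids, and Acnat2 a peroxisomal acyltransferase for fatty acids. Among the members themselves, the nearest profiles were Cyp4a12a and Cyp4b1 (0.27) and Cyp4a12a and Cyp4a12b (0.28), and the farthest were Cyp4a10 and Cyp4a14 (0.87).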

How the data were processed

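Renal cortex RNA had been sequenced from 3 UIRI and 3 UIRI + BA mice, grouped here by the library titles. According to the methods, the authors aligned 150-base paired-end reads with HISAT2 (v2.0.5), assigned them to genes with FeatureCounts and used DESeq2 (v1.20.0) for testing. The deposited table gives each gene's signal in each library as a read count scaled by the library's size factor, although the methods name FPKM, and the authors name no genome build. Rows with fewer than 10 reads over all libraries were not in the table, and 0 value columns went unmapped. Its columns of fold change, p-value, adjusted p-value and class, and the deposited Gene Ontology and KEGG enrichment tables, were not used.

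Whole reads were recovered by dividing by the value of 1 read (tolerance 0.01). limma 3.58.1 (R 4.3.3) was fitted with an intensity trend to log2-transformed values (pseudocount 1), over all 19176 rows and without a covariate. The SE of a member is that of the difference of its group means, without moderation, and the SE of any other gene is limma's. DESeq2 1.42.0, edgeR 4.0.16 (quasi-likelihood, TMM), quantile and upper quartile scaling, removal of genes below 1 in any library, the pseudocount 0.1, the replicate number as a block and leaving out single libraries were alternatives. Levels per length used GENCODE M21 exon lengths. Coding sequences were aligned pairwise with Biopython 1.88. On simulated data with 100 genes changed by 1 and 100 by 2 on the log2 scale, limma recovered 89% and 100% with 8 false calls. The simulation gave every gene the same dispersion, drew the changed genes from the better expressed ones and held no outlying library. Its rates are therefore not the power of the test on these libraries.

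The members and the gene lists were chosen with earlier results of these data known. Named genes are the members, all other Cyp4 genes, up to 6 genes per list with the largest differences at an unadjusted p below 0.05, the 10 nearest profiles, and passing neighbours of the locus. Some genes that this rule covers are not reported here. Of the lists with no such gene, the 3 best known genes are given for macrophages and hepatocytes and the counts alone for the rest. Depth was 16510720 to 38124164 reads per library, and 3 mice per group limit the precision of most genes. For Cyp4a14 and Cyp4a32, with 4 to 30 reads per library, counting error adds to it. Counting error also bears on Cyp4a12a (23 to 83 reads), Cyp4a10 (42 to 288) and Cyp4a12b (46 to 161).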

Additional observations from a re-analysis of the deposited data

How the results depend on the processing

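Every member kept the sign of its log2 difference under quantile normalization, upper quartile scaling, the filter on low values, a pseudocount of 0.1, the replicate block, DESeq2 and edgeR, except that edgeR gave no value for Cyp4a32, which its filter removed. The Cyp4a sum stayed between 1.12 and 1.15 in these and between 0.99 and 1.28 with each library left out. The median of the 7 members stayed between 0.88 and 0.94 in these, and was 1.00 over the 6 that edgeR kept, and between 0.70 and 1.09 with each library left out. Cyp4a14 turned to -0.13 without UIRI replicate 3 and to -0.09 without UIRI + BA replicate 3, and it reached 0.18 without UIRI replicate 2, while Cyp4a32 ran from 0.38 to 1.08 with each library left out. Genes at an adjusted p below 0.05, 0 in the reported test, numbered 213 with DESeq2 and from 0 to 962 with each library left out, most without UIRI replicate 3. Genes at an unadjusted p below 0.05, reported as 1971, ran from 808 (UIRI replicate 1 left out) to 4838 (UIRI replicate 3 left out). With each library left out, the oxidation partners ran from 7 to 17, PPARα and targets from 9 to 16, male-biased genes from 2 to 4, other Cyp4 genes from 0 to 1 (Cyp4f18), eicosanoid genes from 5 to 9 and proximal tubule markers from 18 to 26. Deviations of libraries with the same number correlated at -0.24, 0.30 and 0.15 over 17249 genes. With 3 libraries per group these correlations depend on one another, so they cannot decide whether the numbers pair the libraries. With the replicate number as a block, 6 genes passed an adjusted p below 0.05, 1 other Cyp4 gene and 4 male-biased genes passed an unadjusted p below 0.05, while the oxidation partners went from 11 to 10, the proximal tubule markers from 25 to 26 and all genes from 1971 to 2106 at that threshold. UIRI replicate 2 and UIRI + BA replicate 2 correlated best with each other, but not every library did so with its own number. Counts of 4 to 20 reads limit Cyp4a32, 16 to 30 limit Cyp4a14, and 23 to 83 bear on Cyp4a12a.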
